A study of Mus musculus with 15 samples.

Results

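The 9 genes described here encode S100 proteins: S100g, S100a1, S100a4, S100a6, S100a8, S100a9, S100a10, S100a11 and S100a13. They were taken by symbol from the array's probe table, and all 9 were measured among the 22180 genes with a single symbol, each by 1 transcript cluster (the set of probes for a gene, such as 17545899 for S100g and 17400000 for S100a10). The set was chosen by the log2 values of these same arrays, above all the high S100g values after gastric bypass. The differences of the 9 genes between groups are therefore given as a description, with an interval and without a p-value of their own. A limma adjusted p under 0.05 over all genes, the call used below, is likewise only a description for these 9. The lists of other genes used below were also chosen with earlier results of these data known. Their counts and p-values are therefore not independent support. The values come from livers of male mice carrying the human ApoE*3-Leiden and CETP transgenes (genotype label apoE3L.CETP), which entered the study at 9 to 12 weeks of age and were fed for 6 weeks before surgery on a diet holding 60% fat and 0.25% cholesterol. RYGB mice (n = 6) had Roux-en-Y gastric bypass, which leads food from a small stomach pouch straight into the jejunum. BWm mice (n = 4) had sham surgery and were held at the body weight of the RYGB mice, and Sham AL mice (n = 5) had sham surgery and ate freely. All 15 mice carried both transgenes and were killed 20 days after surgery, with 1 liver and 1 array per mouse. After surgery the mice lived in single cages and had oral glucose and insulin tests. The promoters of the transgenes are not given in the labels.

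S100 proteins are small cytosolic proteins that bind calcium through a pair of EF-hand loops and then dock on other proteins. S100g is calbindin-D9k, a calcium carrier of the duodenal epithelium whose gene answers to vitamin D there. S100a10 is an exception in the family, since its loops no longer bind calcium, and it works as the partner of annexin A2 at membranes. S100a11 binds annexin A1, and S100a8 with S100a9 forms calprotectin, an abundant cytosolic protein of neutrophils. S100a1 is best known from heart and skeletal muscle, S100a4 from fibroblasts and motile cells, S100a6 (calcyclin) from fibroblasts and epithelia, and S100a13 from the release of FGF1 without a signal peptide.

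Of the 9 genes, S100g lies on chromosome X and the other 8 on chromosome 3 in the RefSeq annotation, where S100a1 and S100a13 are neighbours at one end, S100a8 and S100a9 are neighbours further along, and S100a11 and S100a10 are neighbours at the other end. RefSeq promoters (GRCm38.p6) were found for 8 of the 9. The 250 bases before the start of 4 of them are shown: S100g, which leads the set, S100a8 and S100a9, the calprotectin pair, and S100a11, the neighbour of S100a10. Each is written in the gene's own direction, ending next to its start. In S100g (chrX:162964600-162964849, minus strand) the capitals mark AGGTCA on either strand, the half-site of many nuclear receptors, and the core of the HNF1 sequence, TTAAT and ATTA with 1 base between them. In S100a8 (chr3:90668821-90669070, plus strand) and S100a9 (chr3:90695722-90695971, minus strand) they mark TTNNGNAA on either strand, a loose form of the C/EBP sequence, and in S100a8 also the TATA sequence TATAAA. In S100a11 (chr3:93520246-93520495, plus strand) they mark GGGCGG, the GC box. Each motif was searched in all windows, and matches left in lower case are named after the sequences.
S100g: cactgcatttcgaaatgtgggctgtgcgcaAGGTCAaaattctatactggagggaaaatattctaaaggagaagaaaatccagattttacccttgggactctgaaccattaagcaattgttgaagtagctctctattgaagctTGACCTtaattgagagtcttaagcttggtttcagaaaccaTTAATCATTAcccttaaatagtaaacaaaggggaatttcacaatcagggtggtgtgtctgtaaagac
S100a8: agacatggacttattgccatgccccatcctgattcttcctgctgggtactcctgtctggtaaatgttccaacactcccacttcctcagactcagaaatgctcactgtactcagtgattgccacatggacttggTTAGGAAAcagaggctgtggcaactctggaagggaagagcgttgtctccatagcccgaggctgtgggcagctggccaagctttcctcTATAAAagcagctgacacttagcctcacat
S100a9: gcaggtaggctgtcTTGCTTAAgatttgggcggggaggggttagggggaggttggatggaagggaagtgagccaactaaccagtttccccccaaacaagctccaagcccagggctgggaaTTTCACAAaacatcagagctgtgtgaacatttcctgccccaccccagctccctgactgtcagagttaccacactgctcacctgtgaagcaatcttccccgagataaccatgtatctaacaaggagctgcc
S100a11: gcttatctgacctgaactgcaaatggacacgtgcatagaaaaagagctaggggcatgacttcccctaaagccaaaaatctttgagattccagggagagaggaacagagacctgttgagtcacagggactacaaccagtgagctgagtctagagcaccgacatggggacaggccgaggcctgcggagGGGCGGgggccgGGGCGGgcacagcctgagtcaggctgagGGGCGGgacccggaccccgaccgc
The motifs were chosen with these sequences in view, and each was searched on both strands. AGGTCA was found in 14% of the 32851 promoter windows in the table over the same 250 bases, the HNF1 core in 0.387%, TTNNGNAA in 36.8%, TATAAA in 12.4% and GGGCGG in 32.7%. TGANTCA, also searched and not marked, was found in 6.75%. In S100g the AGGTCA matches began 220 and 107 bases before the start, the second on the opposite strand, and the HNF1 core began 67 bases before it. The S100g window also held 6 matches to TTNNGNAA, some overlapping or on the opposite strand of the same bases, which are not in capitals. S100a11 held 3 matches to GGGCGG, beginning 64, 52 and 24 bases before its start, and in lower case 1 match to AGGTCA at 243 bases on the opposite strand. It also held, in lower case, 2 matches to TGANTCA, at 136 and 38 bases. S100a8 held TATAAA at 30 bases and 1 match to TTNNGNAA at 117 bases, and S100a9 held 2 matches to TTNNGNAA at 236 and 130 bases, on the opposite strand, and in lower case 1 match to GGGCGG at 223 bases. S100a4, not shown, held TATAAA at 31 bases and AGGTCA at 24 bases. The 300-base windows of S100a1 and S100a13, from 250 bases before to 50 after each start and on opposite strands, share 204 bases.

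The array medians were 3.89 to 4.02 log2 units within a full range of 0.18 to 13.05. Signal over background was not measured here, so differences that rest on values near or under the array medians have an uncertain true size. This holds for S100a4, S100a6, S100a8 and S100a9 in all groups and for S100g in the sham groups, whose arrays read 4.13 to 5.94. The array of Sham AL replicate 4 stood apart, with adrenal and brown fat transcripts. Its mean over 8 adrenal cortex markers was 8.70, and the group median was 3.22. Its mean over 7 adipocyte and brown fat markers was 8.34, and the group median was 3.78. Of these lists, 1 gene was called, Cidea of the second list. It read 3.75 to 4.36 in RYGB, 3.74 to 4.26 in BWm and 4.59 to 9.61 in Sham AL livers. Cidea thus lay higher on all 5 Sham AL arrays than on the others (limma adjusted p = 0.024 each, beside 0.442% and 1.3% of all genes lower). Its log2 differences were -2.60 in RYGB and -2.67 in BWm against Sham AL, and -1.85 and -1.92, still called, without Sham AL replicate 4. The calls ended in 5 and 4 of the 15 fits that left out another array (highest adjusted p 0.082 and 0.081). Ucp1 of the same list read 11.89 on Sham AL replicate 4 and 3.51 to 4.54 on the other Sham AL arrays. The source of the Cidea signal on those other arrays was not tested. In RYGB against BWm limma called 0 markers of either list, with 0 at an unadjusted p under 0.05. Values without Sham AL replicate 4 are given where they matter. Hepatocyte markers averaged 11.08 to 11.26 over the RYGB arrays, 11.28 to 11.37 over the BWm arrays and 11.07 to 11.22 over the Sham AL arrays, as for liver. In a piece of liver, fewer cells of a type and less RNA per cell cannot be told apart.

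S100g, the calcium carrier, was higher in every bypass liver than in every sham liver. The RYGB arrays read 6.99, 8.21, 7.91, 8.33, 7.38 and 8.28 log2 units, the BWm arrays 4.99, 4.46, 4.13 and 4.31, and the Sham AL arrays 4.46, 4.75, 5.94, 5.52 and 5.74. The RYGB arrays did not overlap either sham group, whereas the BWm and Sham AL arrays overlapped. The group means were 7.85 ± 0.55 in RYGB (SD, n = 6), 4.47 ± 0.37 in BWm (SD, n = 4) and 5.28 ± 0.64 in Sham AL livers (SD, n = 5). RYGB exceeded Sham AL by 2.57 ± 0.28 log2 units (SE, 5.93-fold, 95% interval 1.98 to 3.16) and BWm by 3.38 ± 0.30 (SE, 10.4-fold, 2.75 to 4.01). With the sham arrays near the array medians and background not measured, these folds describe the signal and may differ from those of the RNA. The lowest RYGB array lay 1.05 log2 units above the highest Sham AL array and 2.00 above the highest BWm array. BWm and Sham AL differed by -0.81 ± 0.31 (SE, interval -1.46 to -0.16), which did not pass the adjusted threshold. Within the bypass group, replicates 1 and 5 were the lowest and the other 4 lay within 0.5 log2 units of each other.

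**Figure D1:**
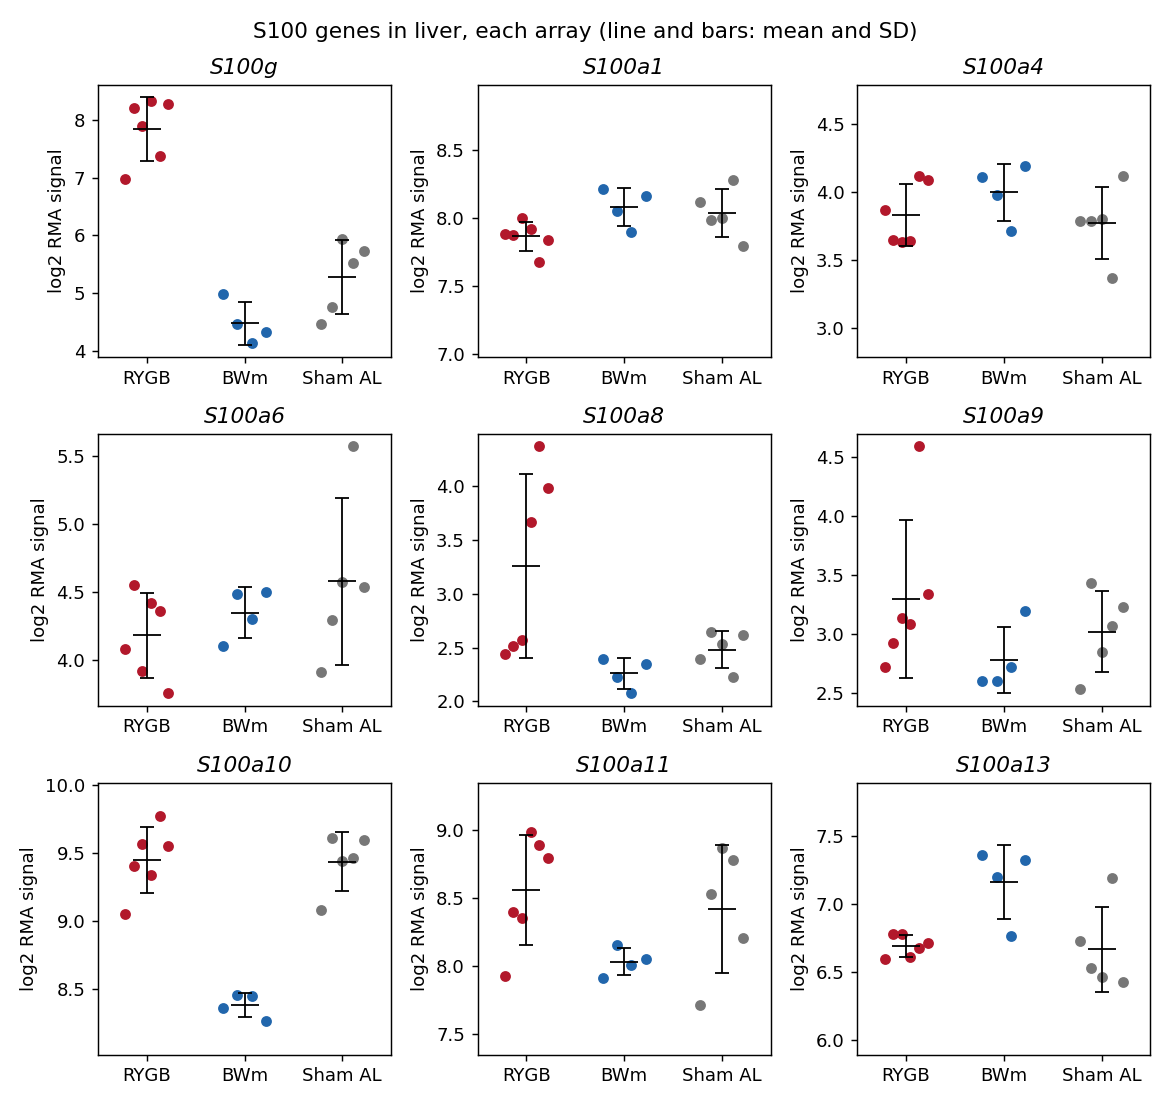
Log2 RMA signal of the 9 S100 genes on each array (points), with the mean and SD of each group (line and bars), for RYGB (n = 6), BWm (n = 4) and Sham AL (n = 5); each panel has its own vertical range. S100g separates the RYGB arrays (6.99 and above) from all sham arrays (5.94 and below), and S100a10 separates the BWm arrays (8.45 and below) from the others (9.05 and above).

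In the whole set, 1 of the 9 genes (S100g) was called in RYGB against Sham AL, beside 1.38% of all genes. In RYGB against BWm, 2 of 9 (S100g and S100a10) were called higher and 0 lower, beside 6.36% of all genes, and in BWm against Sham AL 1 of 9 (S100a10) was called lower, beside 2.84%. In RYGB against Sham AL the arrays did not overlap for 1 of the 9 genes, which was higher, beside 1.58% of all genes higher and 2.39% in either direction. In RYGB against BWm they did not overlap for 3 higher and 0 lower genes, beside 4.71% and 2.91% of all genes (7.61% in either direction). In BWm against Sham AL they did not overlap for 1 lower gene, beside 3.39% of all genes lower and 6.85% in either direction. The genes were chosen with these comparisons known, so nothing is read from these counts. The median log2 difference of the 9 genes was 0.06 in RYGB against Sham AL, 0.52 in RYGB against BWm and -0.23 in BWm against Sham AL. Over all genes it was 0.00, 0.00 and -0.01. RYGB arrays enter the first 2 comparisons, BWm arrays the last 2 and Sham AL arrays the first and the last, so the comparisons are not independent.

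**Figure D2:**
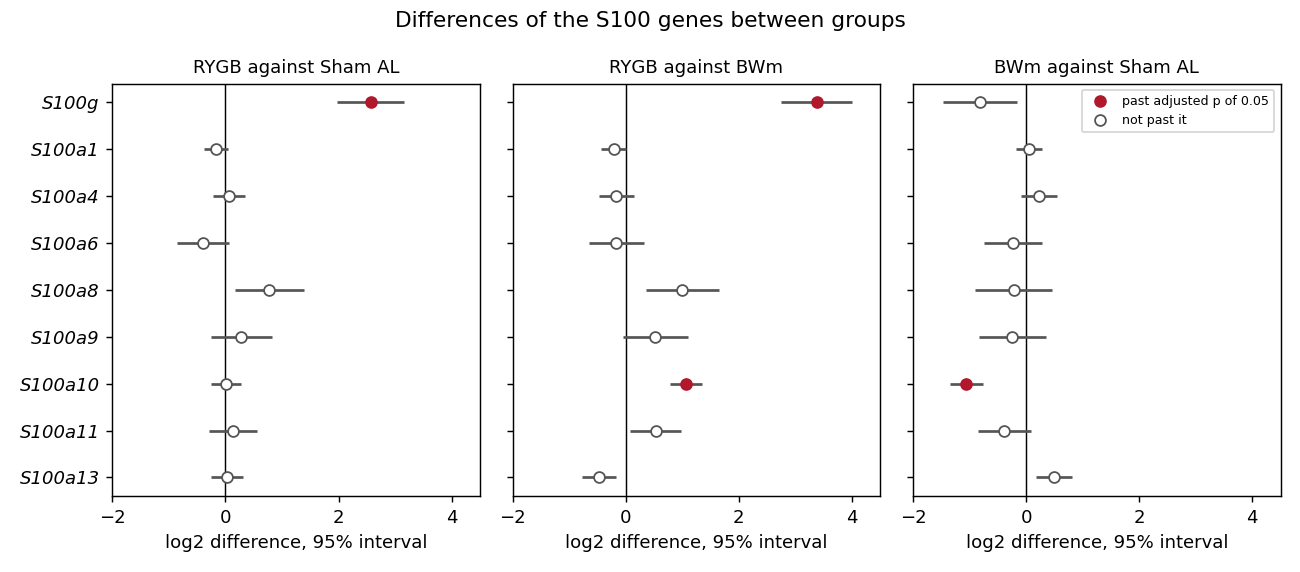
Log2 difference of each S100 gene (points) with its 95% interval from the limma fit over all 15 arrays, in RYGB against Sham AL, RYGB against BWm and BWm against Sham AL; filled points passed a limma adjusted p of 0.05 over all genes. S100g stands at 2.57 and 3.38 in the RYGB comparisons, and S100a10 at 1.07 in RYGB against BWm and -1.06 in BWm against Sham AL.

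Vitamin D and calcium transport genes, only some of which work with S100g in the duodenum, held 1 call. Of the 20 on the list, 18 were measured, and 0 were called in RYGB against Sham AL and in BWm against Sham AL. At an unadjusted p under 0.05 limma gave 1 and 3 of them in these comparisons, and the methods' one-way test (p under 0.05 and at least 1.5-fold) gave 0 and 0. The 54 log2 differences of the list lay between -0.49 and 0.38. Vdr, the vitamin D receptor, averaged 4.21 ± 0.21 in RYGB (SD, n = 6), 3.96 ± 0.10 in BWm (SD, n = 4) and 4.27 ± 0.57 in Sham AL livers (SD, n = 5). Trpv6, the calcium channel of the intestinal brush border, averaged 3.56 ± 0.19, 3.58 ± 0.30 and 3.62 ± 0.17 in the same groups, under the array medians. Itpr2, the main inositol trisphosphate receptor of hepatocytes, which releases calcium from the endoplasmic reticulum, was the 1 gene called in RYGB against BWm (log2 -0.49 ± 0.09 SE, limma adjusted p = 0.002), beside 2.34% of all genes lower. Of 13 measured EF-hand proteins outside the family, 1 was called, Calu (calumenin of the secretory pathway), at log2 0.40 ± 0.11 SE in RYGB against BWm (limma adjusted p = 0.033), where 4.02% of all genes were called higher. That call ended in each fit that left out RYGB replicate 3, 4, 5 or 6 or any 1 BWm replicate (highest adjusted p 0.099).

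Of 12 measured markers of intestinal epithelium, 8 averaged under the array medians. Their mean per array spanned 4.31 to 4.56 in RYGB, 4.54 to 4.80 in BWm and 4.25 to 4.53 in Sham AL livers. Vil1, villin of the brush border, averaged 3.36 ± 0.27 in RYGB (SD, n = 6), 3.39 ± 0.22 in BWm (SD, n = 4) and 3.34 ± 0.20 in Sham AL livers (SD, n = 5). Fabp2, the intestinal fatty acid-binding protein, was lower in RYGB than in Sham AL (log2 -1.37 ± 0.27 SE, limma adjusted p = 0.015, and 0.058 without Sham AL replicate 2). The 12 markers had differences between -1.37 and 0.33 there, with a median of 0.07. In that comparison 1 of the 12 was called, beside 1.38% of all genes. Lgals4, a galectin of the gut, was the 1 called in each of the others, beside 6.36% and 2.84%, at log2 -1.15 ± 0.22 SE in RYGB against BWm and 1.32 ± 0.23 SE in BWm against Sham AL (limma adjusted p = 0.0035 and 0.0042). Of 6 measured pancreatic acinar markers, 0 were called by limma in any comparison (at an unadjusted p under 0.05, 1 in RYGB against Sham AL and 0 in the others). Their mean spanned 3.11 to 3.43 in RYGB, 3.15 to 3.45 in BWm and 3.28 to 3.54 in Sham AL livers. The part of cells from other organs in the S100g values was not tested.

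S100a10, the annexin A2 partner, was lower in the BWm livers than in every other liver. The RYGB arrays read 9.05, 9.40, 9.57, 9.34, 9.77 and 9.55 log2 units, the BWm arrays 8.36, 8.45, 8.45 and 8.27, and the Sham AL arrays 9.08, 9.61, 9.44, 9.46 and 9.60. BWm did not overlap RYGB or Sham AL, while RYGB and Sham AL covered the same range. The difference was 1.07 ± 0.13 log2 units in RYGB against BWm (SE, 2.09-fold, 95% interval 0.79 to 1.34) and -1.06 ± 0.14 in BWm against Sham AL (SE, 2.08-fold lower, -1.35 to -0.77). In RYGB against Sham AL it was 0.01 ± 0.12 (SE, -0.25 to 0.27). The BWm arrays spread least, with an SD of 0.09, against 0.24 for RYGB and 0.21 for Sham AL.

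Annexins, the membrane-binding partners of S100 proteins, were measured for 11 of 12 genes. In RYGB against BWm 6 were called higher and 0 lower, beside 4.02% of all genes higher, and their median difference was 0.44. In BWm against Sham AL 2 were called lower and 0 higher, beside 1.3% of all genes lower, with a median of -0.17. In RYGB against Sham AL 0 were called by limma, 2 had an unadjusted p under 0.05 and 0 passed the methods' one-way test, with a median of 0.18. Anxa9 had the smallest adjusted p there (0.13). Anxa2, which encodes annexin A2, read 5.87, 6.51, 6.78, 6.83, 7.38 and 6.81 on the RYGB arrays, 5.14, 5.04, 4.45 and 4.99 on the BWm arrays, and 5.76, 6.20, 6.63, 7.33 and 6.39 on the Sham AL arrays. As for S100a10, the BWm arrays lay below all others and replicate 1 was the lowest in both the RYGB and the Sham AL group. Anxa2 differed by 1.79 ± 0.27 log2 units in RYGB against BWm (SE, 3.46-fold, limma adjusted p = 0.00047) and by -1.56 ± 0.28 in BWm against Sham AL (SE, 2.94-fold lower, adjusted p = 0.0047). Anxa5, the phosphatidylserine-binding annexin, differed by 1.03 ± 0.14 and -0.86 ± 0.14 in the same comparisons (SE, limma adjusted p = 0.0002 and 0.003).

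Anxa4, Anxa7 and Anxa9, less studied annexins, rose in RYGB against BWm by log2 0.44 ± 0.09, 0.72 ± 0.12 and 0.62 ± 0.14 (SE, limma adjusted p = 0.0066, 0.0012 and 0.012). Anxa3 rose by log2 0.69 ± 0.18 (SE, adjusted p = 0.028), and this call ended when RYGB replicate 4 or 5 or BWm replicate 1, 3 or 4 was left out (highest adjusted p 0.095). Anxa1, the partner of S100a11, measured log2 0.11 ± 0.22 in RYGB against BWm and -0.02 ± 0.23 in BWm against Sham AL (SE) and was not called. Within groups, the deviations of S100a10 and Anxa2 from their group means had a Pearson's r of 0.62 and a Spearman's rho of 0.29 over 15 arrays, and r of 0.73 without Sham AL replicate 4. Those of S100a11 and Anxa1 had r of 0.69 and rho of 0.65. Those of S100a11 and Anxa2 were closer than either pair, with r of 0.77 and rho of 0.74. These are descriptions of arrays that share a normalization.

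**Figure D3:**
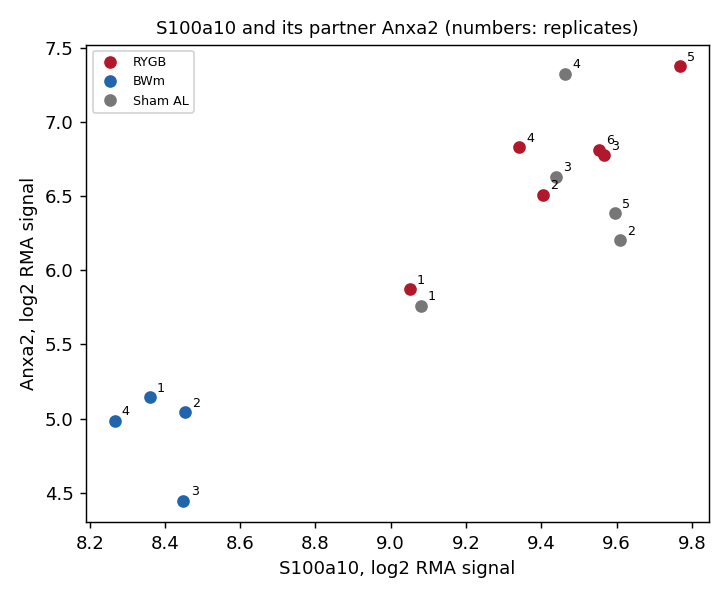
Log2 RMA signal of S100a10 (horizontal) against that of Anxa2 (vertical) on each of the 15 arrays, coloured by group and numbered by replicate. The 4 BWm arrays sit at the lower left (S100a10 at 8.45 or less, Anxa2 at 5.14 or less), and the RYGB and Sham AL arrays share the upper right.

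S100a11, the neighbour of S100a10, had its lowest mean and smallest SD in BWm livers, without a call over all arrays (8.56 ± 0.40 in RYGB, 8.03 ± 0.10 in BWm and 8.42 ± 0.47 in Sham AL, SD, n = 6, 4 and 5). The RYGB arrays read 7.93, 8.40, 8.35, 8.99, 8.89 and 8.80, the BWm arrays 7.92, 8.16, 8.01 and 8.05, and the Sham AL arrays 7.71, 8.53, 8.87, 8.78 and 8.21. All groups overlapped, and replicate 1 was again the lowest of the RYGB and of the Sham AL arrays. RYGB differed from BWm by 0.53 ± 0.22 log2 units (SE, 95% interval 0.07 to 0.98), BWm from Sham AL by -0.39 ± 0.22 (SE, -0.86 to 0.08) and RYGB from Sham AL by 0.14 ± 0.20 (SE, -0.29 to 0.56). The labels give each animal a number of unstated meaning, under 50 for RYGB replicates 1 to 3 and Sham AL replicate 1 and above 60 for the other 11 mice. A block on this number assumes the same shift in every group, and BWm holds no mouse numbered under 50. With it, S100a11 differed by 0.90 ± 0.15 in RYGB against BWm and -0.54 ± 0.14 in BWm against Sham AL (SE), both called. Among mice numbered above 60 the RYGB against BWm difference was 0.86 ± 0.16 (SE), also called. This set leaves out RYGB replicates 1 to 3, the lowest RYGB arrays for S100a11, so the value is a description without a test. The pseudogene S100a11-ps, whose sequence could share probe signal with S100a11, averaged 5.13 ± 0.19 in RYGB (SD, n = 6), 4.54 ± 0.49 in BWm (SD, n = 4) and 5.11 ± 0.46 in Sham AL livers (SD, n = 5). Its deviations from the group means had r of 0.68 with those of S100a11 over 15 arrays, and how much signal they share was not tested, so the level of S100a11 is uncertain.

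S100a13, which takes part in FGF1 export, had its highest mean in BWm livers. Over the RYGB arrays it read 6.59 at the lowest, 6.69 at the median and 6.78 at the highest, against 7.35, 7.20, 6.76 and 7.32 on the BWm arrays and 6.73, 6.52, 6.46, 7.19 and 6.42 on the Sham AL arrays. All BWm arrays but replicate 3 lay above every RYGB and Sham AL array, and the highest Sham AL value was that of replicate 4. RYGB differed from BWm by -0.47 ± 0.14 log2 units (SE, 95% interval -0.77 to -0.16) and BWm from Sham AL by 0.49 ± 0.15 (SE, 0.18 to 0.81), neither called over all arrays. Without Sham AL replicate 4 both passed the threshold, at -0.47 and 0.63, and without BWm replicate 3 they also passed it, at -0.60 and 0.63. Both also passed with the filter on low values and with array weights, and the first with only the RYGB and BWm arrays in the fit. RYGB and Sham AL differed by 0.03 ± 0.14 (SE, -0.26 to 0.31), and by 0.16 without Sham AL replicate 4.

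S100a1, whose promoter window overlaps that of S100a13 on the opposite strand, had the smallest SE of the 9 genes. The group means were 7.87 ± 0.11 in RYGB (SD, n = 6), 8.08 ± 0.14 in BWm (SD, n = 4) and 8.03 ± 0.18 in Sham AL livers (SD, n = 5). The lowest arrays read 7.68, 7.89 and 7.80 in these groups, and all groups overlapped. RYGB differed from BWm by -0.22 ± 0.11 log2 units (SE, interval -0.44 to 0.01), RYGB from Sham AL by -0.17 ± 0.10 (SE, -0.38 to 0.04) and BWm from Sham AL by 0.05 ± 0.11 (SE, -0.19 to 0.28). S100a1 and S100a13 deviated together within groups, with r of 0.81 over 15 arrays, the highest of the 36 pairs of members, and 0.72 without Sham AL replicate 4. The part of the shared start region in this value was not tested.

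S100a8, a calprotectin subunit, was highest in 3 of the 6 bypass livers. RYGB replicates 1 to 3 read 2.44, 2.52 and 2.57 log2 units and replicates 4 to 6 read 3.67, 4.38 and 3.99, against 2.39, 2.23, 2.07 and 2.35 on the BWm arrays and 2.40, 2.64, 2.53, 2.23 and 2.61 on the Sham AL arrays. Replicates 4 to 6 lay over 1 log2 unit above every sham array, and replicates 1 to 3 lay within the Sham AL range. Over all arrays RYGB differed from Sham AL by 0.78 ± 0.29 log2 units (SE, 95% interval 0.17 to 1.39) and from BWm by 1.00 ± 0.31 (SE, 0.35 to 1.65), and neither was called, though the RYGB and BWm arrays did not overlap. The difference from BWm was called when RYGB replicate 1, 2 or 3 was left out (1.16, 1.15 and 1.14) and with array medians subtracted (1.02). BWm differed from Sham AL by -0.22 ± 0.32 (SE, -0.90 to 0.45). Replicates 1 to 3 have animal numbers under 50 and replicates 4 to 6 numbers above 60. Among mice numbered above 60 alone, S100a8 differed by 1.51 ± 0.17 in RYGB against Sham AL and by 1.75 ± 0.17 in RYGB against BWm (SE, n = 3, 4 and 4 arrays), both called. This set leaves out RYGB replicates 1 to 3, the lowest RYGB arrays for S100a8. Its larger differences and calls follow from that split and carry no test. With the number as a block, the differences were 1.08 ± 0.20 and 1.51 ± 0.23 (SE), also called. The block assumes the same shift in every group. Sham AL replicate 1, numbered under 50, did not show the RYGB shift and lay within the range of the other Sham AL arrays. These block differences rest on that assumption and are uncertain. Mice numbered under 50 include 1 Sham AL and 0 BWm mice, so no interval can be had within them. What else differed between RYGB replicates 4 to 6 and 1 to 3 was not tested.

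S100a9, the other subunit, read 2.72, 2.93, 3.13, 3.09, 4.59 and 3.34 on the RYGB arrays, 2.60, 2.60, 2.72 and 3.20 on the BWm arrays and 2.53, 3.43, 2.85, 3.07 and 3.23 on the Sham AL arrays. RYGB replicate 5, also the highest for S100a8, stood above all others and the groups overlapped. The differences were 0.28 ± 0.26 log2 units in RYGB against Sham AL (SE, 95% interval -0.26 to 0.82), 0.52 ± 0.27 in RYGB against BWm (SE, -0.05 to 1.09) and -0.24 ± 0.28 in BWm against Sham AL (SE, -0.84 to 0.35). With the animal number as a block, under the same assumption, the RYGB against BWm difference was 0.87 ± 0.25 (SE) and was called.

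Neutrophil markers tracked S100a8 from array to array in part. The mean of the 17 measured markers was 3.37, 3.39 and 3.36 on RYGB replicates 1 to 3 and 3.65, 3.73 and 3.69 on RYGB replicates 4 to 6, against 3.23 to 3.52 on the BWm and 3.19 to 3.56 on the Sham AL arrays. For 4 of the 17 markers RYGB replicates 4 to 6 all lay above every sham array, beside 2.69% of all genes, and for RYGB replicates 1 to 3 the count was 0, beside 2.08%. This split by animal number also separates the RYGB arrays by S100a8, so these counts are a description and carry no test. Ngp, a granule protein of neutrophil precursors, read 3.21, 3.12, 3.22, 4.27, 4.51 and 4.29 on the RYGB arrays in order, against 2.99 to 3.26 on the BWm and 2.65 to 3.36 on the Sham AL arrays. Ly6g, the defining surface marker of mouse neutrophils, stayed at 2.01 to 2.57 on the RYGB, 2.25 to 2.71 on the BWm and 2.01 to 2.92 on the Sham AL arrays, near the bottom of the scale. Of the 17, 11 averaged under the array medians and 0 were called by limma in any comparison. At an unadjusted p under 0.05 the counts were 4, 4 and 0 in RYGB against Sham AL, RYGB against BWm and BWm against Sham AL, and the methods' one-way test gave 1, 0 and 0. The deviations of S100a8 had r of 0.82 and rho of 0.83 with those of the marker mean over 15 arrays, and those of S100a9 had r of 0.68 and rho of 0.66. The split was not particular to neutrophil markers. The mean of 16 monocyte and macrophage markers was 6.39, 6.79 and 6.60 on RYGB replicates 1 to 3. It was 7.10, 7.01 and 6.94 on RYGB replicates 4 to 6. The BWm arrays spanned 6.18 to 6.59 and the Sham AL arrays 6.32 to 6.86. The part of neutrophil, monocyte or macrophage number in the S100a8 values was not tested.

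**Figure D4:**
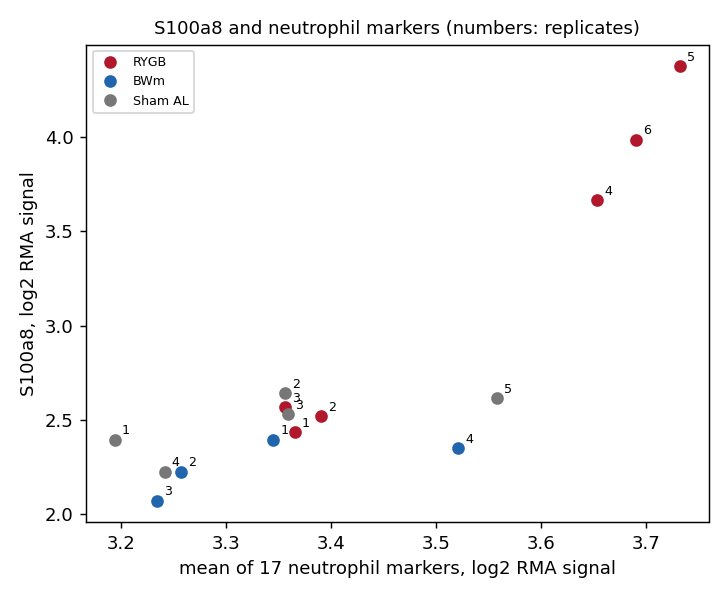
Mean log2 RMA signal of 17 neutrophil markers (horizontal) against that of S100a8 (vertical) on each of the 15 arrays, coloured by group and numbered by replicate. RYGB replicates 4, 5 and 6 stand at the upper right (marker means of 3.65, 3.73 and 3.69), and RYGB replicates 1, 2 and 3 lie among the sham arrays.

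Of 10 measured genes for receptors of secreted S100 proteins and their co-receptors, 2 were called higher in RYGB against Sham AL, beside 0.938% of all genes, and 2 in RYGB against BWm, beside 4.02%. In BWm against Sham AL limma called 0 of them, with 1 at an unadjusted p under 0.05 and 1 by the methods' one-way test. Cd14, the lipopolysaccharide co-receptor that works with TLR4, read 6.14, 7.39, 6.83, 8.21, 8.56 and 8.11 on the RYGB arrays, 5.33, 5.18, 4.75 and 4.34 on the BWm arrays and 5.33, 4.87, 5.54, 5.49 and 5.62 on the Sham AL arrays. RYGB did not overlap the sham groups, and its replicates 4 to 6 were the highest, as for S100a8 (r of 0.79 and rho of 0.74 between the deviations over 15 arrays). Cd14 rose by log2 2.17 ± 0.34 against Sham AL and 2.64 ± 0.36 against BWm (SE, limma adjusted p = 0.0024 and 0.00023). Alcam, an adhesion molecule related to the receptor RAGE, rose by log2 0.49 ± 0.12 against Sham AL and 0.69 ± 0.13 against BWm (SE, limma adjusted p = 0.048 and 0.0023). The first of these Alcam calls ended in 13 of the 15 fits that left out 1 array (all but those without RYGB replicate 1 or 3), and the highest adjusted p was 0.14. Tlr4 and Ager (which encodes RAGE), the receptors of calprotectin, measured log2 -0.14 ± 0.13 and -0.20 ± 0.13 in RYGB against Sham AL (SE), and neither was called in any comparison.

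Of 11 measured acute phase genes, 1 was called higher in RYGB against Sham AL (Cd14, on both lists) and 4 in RYGB against BWm (Cd14, Orm2, Lcn2 and Il1rn), beside 0.938% and 4.02% of all genes. At an unadjusted p under 0.05 the counts were 7 and 8, by the methods' one-way test 4 and 4, and leaving out 1 array gave 1 to 4 and 3 to 6 calls (4 and 6 without RYGB replicate 1, and 2 in the first comparison without RYGB replicate 2). In BWm against Sham AL limma called 0, with 2 at an unadjusted p under 0.05 and 0 by the methods' one-way test. Orm2, an orosomucoid, was no longer called in RYGB against BWm without RYGB replicate 4, 5 or 6 or BWm replicate 3 or 4 (highest adjusted p 0.12). Lcn2, lipocalin 2 of hepatocytes and neutrophils, rose by log2 1.52 ± 0.34 in RYGB against BWm (SE, limma adjusted p = 0.01). Its RYGB arrays read 8.95, 9.97, 10.73, 11.39, 10.82 and 10.87, with replicate 1 within the range of the BWm arrays (8.60 to 9.61). Monocyte and macrophage markers were called for 1 of 16 in each comparison, namely Adgre1 at log2 0.64 ± 0.14 in RYGB against Sham AL, Cd68 at 0.72 ± 0.17 in RYGB against BWm and Ly6c2 at -0.78 ± 0.19 in BWm against Sham AL (SE, limma adjusted p = 0.025, 0.016 and 0.028). The shares over all genes were 1.38%, 6.36% and 2.84% in these comparisons. At an unadjusted p under 0.05 limma gave 5, 6 and 2 of the 16, and the methods' one-way test gave 4, 1 and 1. The median differences were 0.23, 0.35 and -0.17, and all 16 in RYGB against BWm lay between 0.02 and 1.42. The list mean spanned 6.39 to 7.10 in RYGB, 6.18 to 6.59 in BWm and 6.32 to 6.86 in Sham AL livers. The Adgre1 call ended when any of RYGB replicates 2 and 4 and Sham AL replicates 1, 2, 4 and 5 was left out, up to an adjusted p of 0.094. The Cd68 call ended without BWm replicate 3 or 4 (up to 0.058), and the Ly6c2 call without Sham AL replicate 1 or 3 or BWm replicate 1, 2 or 3 (up to 0.097).

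S100a4, of fibroblasts and motile cells, and S100a6, calcyclin, were not called in any comparison. S100a4 spanned 3.63 to 4.12 in RYGB with a median of 3.76, against 3.71 to 4.19 in BWm and 3.37 to 4.11 in Sham AL livers, around the array medians. Its differences were 0.06 ± 0.14 log2 units in RYGB against Sham AL (SE, 95% interval -0.23 to 0.35), -0.16 ± 0.15 in RYGB against BWm (SE, -0.47 to 0.14) and 0.23 ± 0.15 in BWm against Sham AL (SE, -0.09 to 0.55). S100a6 spanned 3.76 to 4.56 in RYGB with a median of 4.22, against 4.10, 4.49, 4.30 and 4.51 in BWm and 3.92, 4.30, 4.58, 5.57 and 4.54 in Sham AL livers, the 5.57 being that of replicate 4. RYGB differed from Sham AL by -0.40 ± 0.22 log2 units (SE, -0.86 to 0.07) and by -0.15 without that array. BWm differed from Sham AL by -0.23 ± 0.24 (SE, -0.74 to 0.28) and by 0.02 without that array, and RYGB differed from BWm by -0.16 ± 0.23 (SE, -0.66 to 0.33).

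Marker lists of cells that carry these proteins held few called genes. Of 12 stellate cell and fibroblast markers, 9 cholangiocyte markers and 8 endothelial markers, 0 were called by limma in any comparison. At an unadjusted p under 0.05 the counts over the 3 comparisons in turn were 0, 3 and 3, then 1, 2 and 1, then 1, 3 and 1, and of these lists the methods' one-way test gave 2 stellate genes in BWm against Sham AL. The stellate and fibroblast mean spanned 6.99 to 7.44 in RYGB, 6.98 to 7.22 in BWm and 6.95 to 7.65 in Sham AL livers, and the cholangiocyte mean 4.48 to 4.96, 4.54 to 4.72 and 4.45 to 4.73 in the same groups. Of 9 lymphocyte markers, Gzma was the 1 called, in BWm against Sham AL (log2 -0.60 ± 0.16 SE, limma adjusted p = 0.048, beside 1.3% of all genes lower), at a mean of 2.39 in BWm and 2.98 in Sham AL livers. That call ended in 11 of the 15 fits that left out 1 array (all but those that dropped Sham AL replicate 3 or RYGB replicate 2, 4 or 6), and the highest adjusted p was 0.14. Of 9 hepatocyte markers, Cps1 of the urea cycle was the 1 called, at log2 0.44 ± 0.10 in BWm against Sham AL (SE, limma adjusted p = 0.023, beside 1.53% of all genes higher), and the call ended without Sham AL replicate 2 or 3 or BWm replicate 2 or 3 (highest adjusted p 0.07).

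The remainder of the family held no call. The 8 other S100 genes (S100a2, S100a3, S100a5, S100a7a, S100a14, S100a16, S100b and S100z) had 24 log2 differences between -0.66 and 0.32, with 0 called by limma, 1 at an unadjusted p under 0.05 in each comparison and 0 by the methods' one-way test, and 5 of the 8 averaged under the array medians. S100a3, of hair and epidermis, had the smallest adjusted p of them (log2 -0.36 ± 0.11 SE in RYGB against BWm, limma adjusted p = 0.066), at 3.28 ± 0.16 in RYGB (SD, n = 6) and 3.64 ± 0.15 in BWm livers (SD, n = 4). S100b, of glia and adipocytes, read 4.99 on Sham AL replicate 4 and 2.56 to 3.19 on the other 14 arrays. The 7 fused-type S100 proteins of the skin barrier, all under the array medians, had differences between -0.34 and 0.16, with 0 called by limma, 1 at an unadjusted p under 0.05 in each comparison and 0 by the methods' one-way test.

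Within groups the 9 genes did not vary as one block. Among the 36 pairs, the deviations from the group means had a median r of 0.16, 9 pairs lay above 0.5 and 4 below -0.4. The pairs above 0.5 included S100a8 with S100a9 (0.71), S100a9 with S100a10 (0.73), S100a10 with S100a11 (0.61) and S100g with S100a11 (0.55), besides S100a1 with S100a13. S100g had r of 0.14 with S100a8 and -0.09 with S100a9, and the bypass liver with the highest S100g (replicate 4) was not the one with the highest S100a8 and S100a9 (replicate 5). The 4 below -0.4 were S100a1 with S100a4 (-0.48), S100a10 (-0.45) and S100a9 (-0.42), and S100a4 with S100a6 (-0.46). Some values rested on Sham AL replicate 4. Without it S100a1 with S100a4 gave -0.25, S100a4 with S100a6 -0.07, and S100a6 with S100a13 -0.26, against 0.44 over 15 arrays. S100a1 with S100a10 and with S100a9 gave -0.56 and -0.52 without it. The S100a9 pairs also lean on RYGB replicate 5, which read 4.59 for S100a9, against 2.72 to 3.34 on the other RYGB arrays. Their r without RYGB replicate 5 was not computed.

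**Figure D5:**
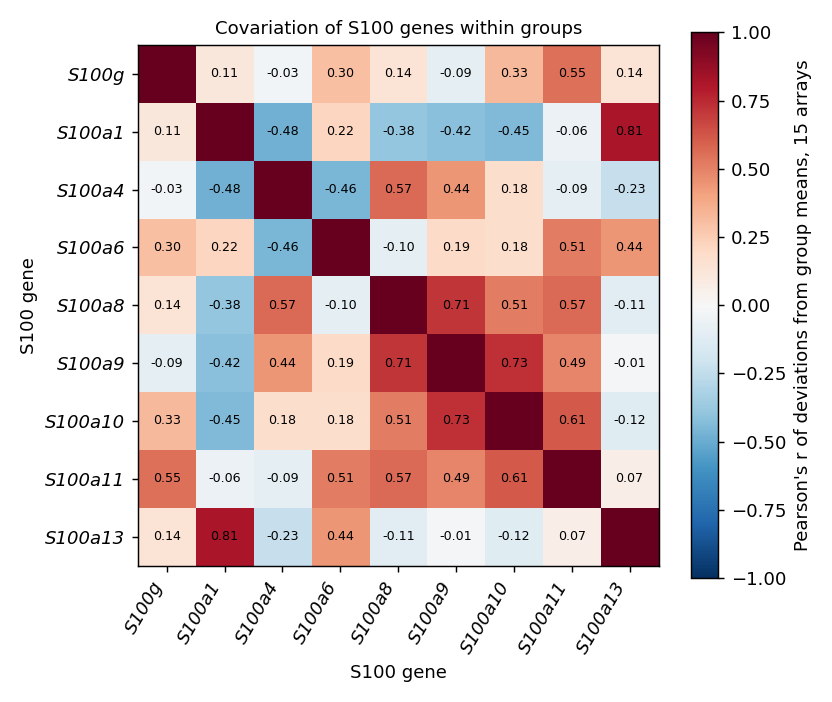
Pearson's r between the deviations of the 9 S100 genes from their group means over 15 arrays, from -1 (blue) to 1 (red), with r written in each cell. The strongest pair is S100a1 with S100a13 (0.81). S100a8, S100a9, S100a10 and S100a11 form a block of r between 0.49 and 0.73 (0.50 and 0.73 without Sham AL replicate 4). The plot includes that array and RYGB replicate 5, which stood far above its group for S100a9.

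Over all genes, those whose deviations from the group means were most like those of S100g were 1190007I07Rik, Slc45a4, Piwil4, Nrg1 and Slc39a4, with r between 0.82 and 0.85 over 15 arrays. Without Sham AL replicate 4, 4 of these 5 stayed among the nearest 5, and Olfr742 came first at r of 0.87. For S100a10 the nearest were Ywhae (0.91), Fas, Gm12408, Ssb and Nifk, and without that array Ywhae (0.92), Fas, Ywhah, Gm12408 and Nap1l4. For S100a11 they were Cmtm7 (0.95), Tagln2, Abr, Unc5b and Tpm1, and without that array Cmtm7 (0.95), Abr, Tagln2, Olfr1372-ps1 and Dkk3. For S100a1 they were Uqcrc1 (0.90), Dctn2, Tpst2, Rnf187 and Plekhb2, and Retreg2 led without that array (0.93). For S100a13 they were Tspan6 (0.92), Uqcrc1, Ehd4, Ndufa11 and Enox1, and Ciapin1 led without that array (0.91). For S100a6 they were Kcnip4 (0.93), Procr, Igf1r, Cables1 and Igfbp5, and Tlr4 led without that array (0.94). These are the highest values among the 22180 genes, over few arrays that share a normalization, and carry no test.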

How the data were processed

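Liver RNA of 15 mice was hybridised to GeneChip Mouse Gene 2.0 ST arrays, 1 per mouse. Per the series' design text, the authors ran the robust multi-array average (RMA) over all arrays in Affymetrix Expression Console 1.4.1.46, and they deposited log2 signals for 41345 transcript clusters. The clusters' annotation version and build were not given in the sources used here.

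Of the clusters, 23521 had 1 symbol, 1814 had several and 16010 had none. Only the first were tested, and the cluster with the highest mean was kept for each gene, which left 22180 genes. No filter on level was applied. The 3 comparisons were contrasts in 1 limma fit (limma 3.58.1, R 4.3.3) over 15 arrays, two-sided, with Benjamini-Hochberg adjustment over all genes and a threshold of 0.05, and 12 residual and 5.85 prior degrees of freedom. SE are moderated, and intervals are at 95%. Precision is limited by the number of arrays. Shared litters are not given in the labels. Promoters are RefSeq's.

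The 9 genes and the 18 lists (188 of 203 list genes measured) were chosen with earlier results of these data known. Named were the 9 genes, the rest of the family, the called genes of each list (up to 4) or examples from it, and the 5 genes nearest to each gene above the array medians. Groups come from titles. Replicate numbers name different mice, so no pairs were assumed. The same numbers had correlations of deviations between -0.17 and 0.19 over 13 pairs, 4 of them above 0.1. The fit was tested on simulated data with known changes. In RYGB against Sham AL, RYGB against BWm and BWm against Sham AL it called 50.7%, 44.8% and 43.3% of 1.5-fold changes. Of 2-fold changes it called 97.0%, 94.0% and 86.6%, so a gene not called may still have a smaller change. Alternatives were filtering, normalization, cluster choice, variance priors, array weights, blocks, the one-way ANOVA of the methods and leave-one-out fits. Tables and figures came from Python 3.11.15 with pandas 2.3.3 and with matplotlib 3.10.9.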

Additional observations from a re-analysis of the deposited data

Results flagged for a closer look

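Among 51 sets of arrays (17 S100 genes in 3 groups), 3 held an array far from the others of its group by Dixon's criterion, and chance flags about 1 in 20. S100a9 read 4.59 on RYGB replicate 5, where the other RYGB arrays lay between 2.72 and 3.34. S100b read 4.99 on Sham AL replicate 4, the array with adrenal and brown fat transcripts, where the others of its group lay between 2.81 and 3.19. S100a5, at the bottom of the scale, read 2.77 on RYGB replicate 6, where the other RYGB arrays lay between 1.62 and 2.03.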

How the results depend on the processing

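Over 28 alternative settings, the differences of the 9 genes gave 744 values, of which 723 kept their direction and side of the threshold or stayed uncalled, 21 passed the threshold newly, 0 lost it and 0 called values changed sign. S100g stayed between 2.36 and 2.74 log2 units in RYGB against Sham AL, 3.26 and 3.65 in RYGB against BWm, and -1.02 and -0.65 in BWm against Sham AL, with the calls as reported, and S100a10 stayed called in both comparisons with BWm. The number of the 9 genes called was 2 in BWm against Sham AL with the filter on low values (of 5 genes left) and with array weights. With animal number as a block it was 2, 5 and 2 in RYGB against Sham AL, RYGB against BWm and BWm against Sham AL, and among animals numbered above 60 it was 2 and 4 in the first 2. The block assumes the same shift in every group, which the S100a8 arrays did not show. The set numbered above 60 leaves out the lowest RYGB arrays for S100a8 and S100a11, so its counts carry no test. Leaving out 1 array gave 1 to 1, 2 to 3 and 1 to 2 called.

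Over all genes, 306, 1411 and 629 were called in these comparisons, 174, 903 and 325 with the replicate block, which changed no call of the 9 genes, 169 in the first with all clusters tested, and 1011 in the third with the filter. The methods' ANOVA (p under 0.05 and at least 1.5-fold) gave 370, 857 and 554, and 54, 833 and 90 after Benjamini-Hochberg adjustment. Leaving out 1 array gave 144 to 398, 930 to 1544 and 284 to 646. In the first comparison the count was 176 without RYGB replicate 4, 200 without RYGB replicate 6 and, at the lowest, 144 when Sham AL replicate 2 was left out. In the third it was 284 without BWm replicate 2 and without BWm replicate 3, and 382 without Sham AL replicate 2, and in the second it was 930 without BWm replicate 3. The causes were not tested. S100a8, S100a9 and S100a4 lie near or under the array medians, where signal over background limits what a difference means.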
